A study of Arabidopsis thaliana with 8 samples.

Results

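The input-corrected enrichment gained with tagged MBD7 was measured as an interaction: the ratio of Myc ChIP to input in plants carrying tagged MBD7, divided by the same ratio in plants without the tag. All 8 of the study's 8 libraries entered it, in 4 groups of 2. It was estimated in 232963 of 238296 sliding windows of 1000 bp (one every 500 bp), in 11905 of 11916 bins of 10 kb and in 37898 of 37899 genes. The contrast removes background seen in the untagged precipitation and copy number seen in each line's input, and asks what remains at individual sites and over longer domains.

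MBD7 is one of the Arabidopsis proteins with a methyl-CpG-binding domain, a fold that recognises methylated cytosines in CG context. In Arabidopsis, CG methylation is densest over the transposons and repeats that fill the heterochromatin around the centromeres, and it also lies over isolated transposons and within some genes of the chromosome arms. MBD7 is known for its link to the active DNA demethylation machinery, in which glycosylases remove methylated cytosine.

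Seedlings of Arabidopsis thaliana 14 days old were crosslinked, and sheared chromatin was sequenced before (input) and after precipitation with a mouse monoclonal antibody to the Myc epitope. WT plants carried a 35S-SUC2 transgene and no tagged protein named in the labels. The other plants, line MBD7-5, carried genomic MBD7 under its own promoter fused to a Myc tag (proMBD7::gMBD7:4xMYC), and are 1 transgenic line. All plants grew at 23 °C in days of 16 h light and 8 h dark. The labels give an Invitrogen antibody for WT ChIP and a Millipore antibody for MBD7 ChIP. The written protocol mentions the Invitrogen product alone. If the antibodies did differ, their effect and that of the tagged protein cannot be told apart.

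Depth differed mainly between the ChIP groups. Summed over windows, counts were 31459707 and 24679699 in WT input, 7450486 and 4971029 in WT ChIP, 26739116 and 19224696 in MBD7 input, and 25846940 and 23761267 in MBD7 ChIP. A typical window of WT ChIP held a median of 4 counts in replicate 1 and 3 in replicate 2, against 12 and 13 in MBD7 ChIP and 44 to 63 in the inputs. Replicate libraries correlated over 10 kb bins with r from 0.926 in WT ChIP to 0.992 in WT input. Windows with over 10 times the median input, here called copy-rich, numbered 1953 and held 72.3% to 77.8% of the counts of the ChIP libraries. Whether replicates came from separate plantings is not in the labels. The p-values therefore reflect only how far these libraries spread, and that spread may be technical.

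The pericentromeres carried more of the gained enrichment than the arms. With copy-rich windows left out, pericentromeric windows took 38.4% of counts in both WT input libraries, 55.2% and 51.6% in the WT ChIP libraries, 35.6% and 35.7% in the MBD7 input libraries, and 64.2% and 60.9% in the MBD7 ChIP libraries. The MBD7 ChIP libraries were the highest, the WT ChIP libraries stood between them and the inputs, and no groups overlapped. ChIP exceeded input by 0.81 ± 0.05 (SD, n = 2) on the log2 scale in MBD7 plants and by 0.48 ± 0.07 in WT plants, which left an interaction of 0.33 ± 0.09. It was 0.15 ± 0.05 with copy-rich windows kept, but the ChIP groups then overlapped. Their pericentromeric shares were 90% and 87.9% in MBD7 ChIP and 89.3% and 87.7% in WT ChIP. The inputs still differed, with means of 56.7% in MBD7 and 62.7% in WT. This share needs no scaling between libraries.

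**Figure D1:**
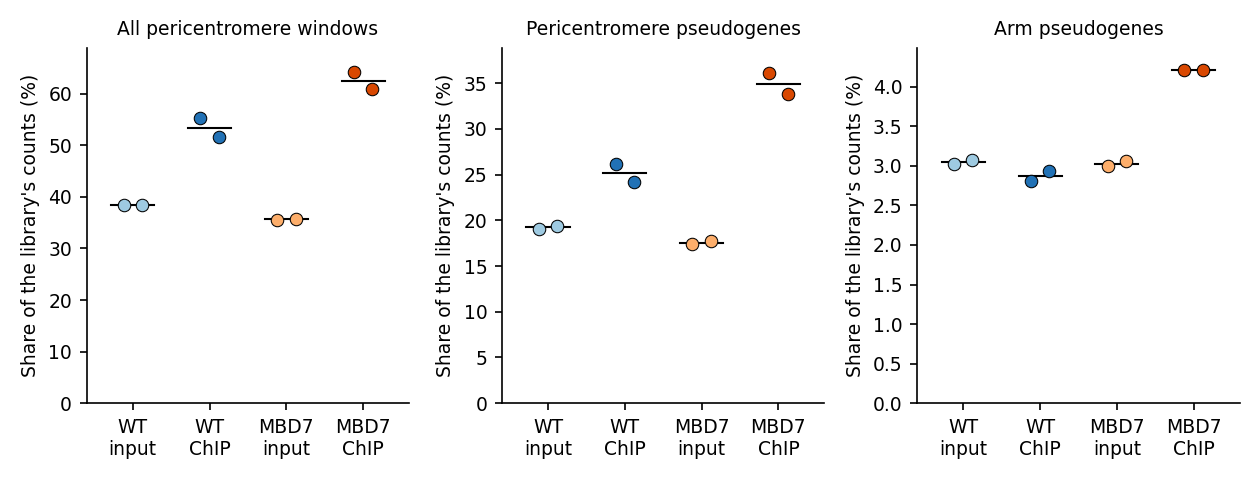
Share of each library's counts (percent, y axis from 0) in pericentromeric windows, in windows over pseudogenes of the pericentromere and in windows over pseudogenes of the arms, with copy-rich windows left out. Points are libraries and bars are means of 2; in each panel both MBD7 ChIP libraries lie above the other 6.

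Windows over pseudogenes were also highest in MBD7 ChIP. Pseudogenes, the RefSeq class that includes transposable element genes, took 36.1% and 33.8% of counts in the MBD7 ChIP libraries when they lay in the pericentromere, against 26.2% and 24.2% in WT ChIP and 17.4% to 19.4% in the 4 inputs. That gave an interaction of 0.61 ± 0.11 (SD, n = 2). Pseudogenes of the arms took 4.21% in both MBD7 ChIP libraries, 2.81% and 2.93% in WT ChIP, and 3.00% to 3.08% in the inputs. In the arms, therefore, only the tagged plants had a ChIP share above input, and the interaction was 0.57 ± 0.05. Protein-coding windows of the arms went the other way, with 27.3% and 30.3% in MBD7 ChIP, 36.4% and 39.6% in WT ChIP and 53.2% to 55.6% in the inputs. Intergenic windows of the pericentromere took no larger share in MBD7 ChIP (20.9% and 19.5%) than in WT ChIP (21.3% and 19.5%). Their interaction was 0.17 ± 0.12, and that of protein-coding windows of the pericentromere was -0.14 ± 0.05.

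Fitted with edgeR's quasi-likelihood test (Benjamini-Hochberg adjusted p under 0.05), the interaction was higher in 15237 windows, which is 6.54% of those tested, and lower in 1336, or 0.573%. In 10 kb bins it was higher in 2224 (18.7%) and lower in 345 (2.9%), and over genes it was higher in 3358 (8.86%) and lower in 886 (2.34%). Of the higher windows, 15128 had MBD7 ChIP above MBD7 input. WT ChIP was below WT input in 5327 of them (35.0%). Of the 1336 lower windows, 1332 (99.7%) had WT ChIP above WT input.

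The balance of higher and lower calls depended on scaling. Higher calls made up 91.9% of the calls in windows, 86.6% in bins and 79.1% in genes with TMM scaling, and 67.6%, 39.9% and 40.0% with library size alone. Library size moved the median of all windows from 0.15 to -0.26, that of bins from 0.05 to -0.35 and that of genes from -0.04 to -0.37. Fold changes below are therefore relative to the bulk of the genome. The number of higher windows fell to 8754 and 9159 without WT input replicates 1 and 2, to 8974 without WT ChIP replicate 2, and to 8007 and 9473 without MBD7 input replicates 1 and 2. The number of higher genes fell to between 1940 and 2045, and that of lower genes to between 262 and 300, when any 1 input library was left out.

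Domains of gain centred on the pericentromeres of all 5 chromosomes. Among bins there, 1747 of 3289 (53.1%) were higher and 48 lower, with a median interaction of 0.64, against 477 of 8616 (5.54%) higher, 297 lower and a median of -0.06 in the arms. The 0.64 came from a median of 1.12 for ChIP over input in MBD7 plants and 0.46 in WT plants. Between the lines, MBD7 against WT had a median of 0.49 in ChIP and -0.10 in input. By chromosome, 46.7% of pericentromeric bins were higher on chromosome 1, 59.7% on chromosome 2, 56.1% on chromosome 3, 54.8% on chromosome 4 and 49.3% on chromosome 5.

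The gain fell off over a few Mb rather than at a sharp edge. From the border that was set for the pericentromere, 77.2% of bins were higher at 2 to 3 Mb inside (median 0.84), 51.7% at 1 to 2 Mb inside (0.60) and 24.2% in the last Mb inside (0.22). The first Mb outside had 10.1% (0.02) and bins 8 to 20 Mb outside had 2.76% (-0.13). Single megabases reached much higher, with 93 of 100 bins on chromosome 4 from 3 to 4 Mb and 92 of 100 on chromosome 3 from 14 to 15 Mb. In the arms the densest were chromosome 4 from 11 to 12 Mb with 17 of 100 and the first Mb of chromosome 2 with 16 of 100.

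**Figure D2:**
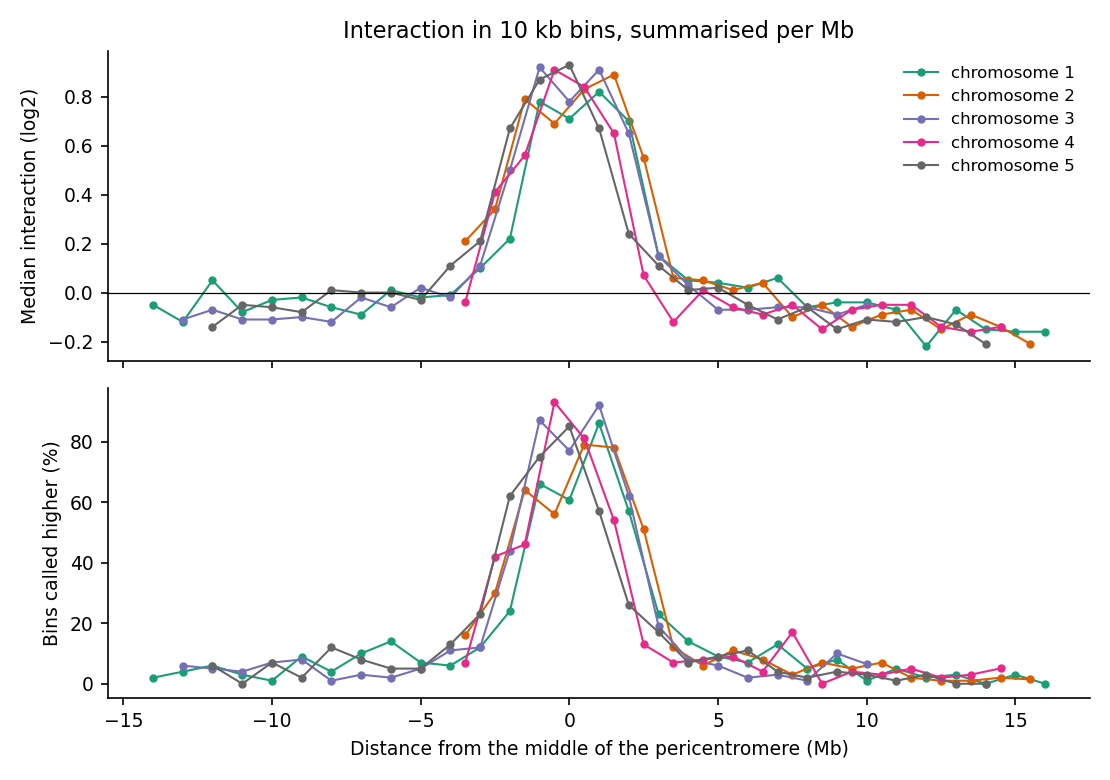
Median interaction (log2, top) and percent of 10 kb bins called higher (bottom) in each Mb, against distance from the middle of the pericentromere in Mb, with 1 line per chromosome. All 5 chromosomes peak near the middle, where 93 of 100 bins were higher in the densest Mb of chromosome 4, and lie near a median of 0 in the arms.

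Called bins joined into 839 runs of 22.2 Mb in all, and the 42 runs of at least 100 kb were all pericentromeric. The longest covered 510 kb of chromosome 4 (TAIR10 chr4:3210001-3720000), with a median interaction of 0.92, and spanned 107 annotated pseudogenes and 7 protein-coding genes. Next came 460 kb of chromosome 5 (chr5:12090001-12550000, median 0.97) with 105 pseudogenes and 6 protein-coding genes. A run of 440 kb on chromosome 1 (chr1:15160001-15600000, median 0.86) held 57 pseudogenes and 3 protein-coding genes. WT ChIP itself exceeded input over these 3 runs, with medians of 1.01, 0.90 and 1.23. The interaction there is how far the MBD7 ratio of ChIP to input went beyond a WT ratio already raised. Part of it lies in the inputs, which were lower in MBD7 plants. From 3 to 4 Mb of chromosome 4, MBD7 against WT had medians of 0.66 in ChIP and -0.27 in input. Chromosome 5 had 0.69 and -0.24 from 12 to 13 Mb, and chromosome 1 had 0.53 and -0.26 from 15 to 16 Mb.

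At the scale of windows the gain was finer. Called windows formed 3629 runs with a median length of 1500 bp and 9.73 Mb in all, of which 7.96 Mb was pericentromeric and 1.77 Mb lay in the arms. In the arms, 71.7% of the 950 runs were at most 1500 bp long. The longest run of windows covered 51.0 kb at the top end of chromosome 2 (chr2:501-51500, median 1.84), the end that carries a ribosomal RNA gene array. That run held 4 protein-coding genes, 7 pseudogenes and 6 RNA genes, and WT ChIP itself exceeded input over it, with a median of 0.80. Over the 2 rRNA genes annotated in the arms, MBD7 against WT had medians of 0.53 in ChIP and -0.59 in input. The second covered 38.0 kb of chromosome 5 (chr5:12742501-12780500, median 1.97) and held 6 pseudogenes and no protein-coding gene.

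Of the annotation classes, pseudogenes had the highest window median in both compartments. In the pericentromere, 8693 of 22465 pseudogene windows were higher (38.7%), with a median interaction of 1.01, against 15.1% of intergenic windows (0.63) and 4.41% of protein-coding windows (0.27). As shares of counts, which need no scaling between libraries, the latter 2 classes had 0.17 ± 0.12 and -0.14 ± 0.05. In the arms, 1005 of 4254 pseudogene windows were higher (23.6%, median 0.64), against 0.88% of protein-coding windows (-0.02) and 0.898% of intergenic windows (-0.13). The components differed between the compartments: pericentromeric pseudogenes had medians of 1.53 for MBD7 and 0.47 for WT, and arm pseudogenes 0.50 and -0.07. The median of arm pseudogenes exceeded that of arm protein-coding windows by 0.65. Other scaling shifts both classes alike and the 1.5-fold threshold changes only the test, so neither can test this difference. Under the remaining settings it was 0.62 to 0.76.

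**Figure D3:**
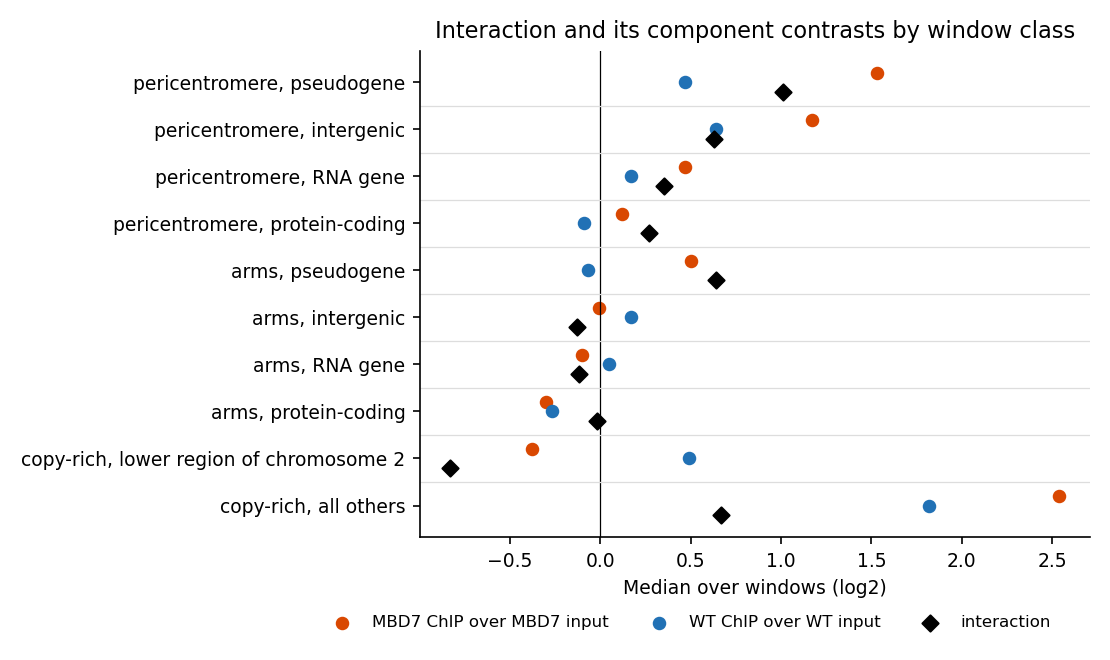
Median over windows (log2) of MBD7 ChIP over input, WT ChIP over input and their interaction, by region and annotation class with copy-rich windows left out, and for copy-rich windows inside and outside 3 to 4 Mb of chromosome 2. Pseudogenes have the highest interaction of the annotated classes in both regions, and the copy-rich windows of chromosome 2 have the lowest, at -0.83.

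Of the 2477 called-higher windows of the arms, 44.1% overlapped a pseudogene, against 3.26% of all tested arm windows and 2.49% of called-lower ones. In the arms the gain rose with the length of the annotated element. Among arm pseudogenes, 5 of 66 of up to 500 bp were higher (7.58%, median 0.07), 63 of 130 between 2 and 4 kb (48.5%, 0.72) and 80 of 132 over 4 kb (60.6%, 0.95). In the pericentromere the median changed less, from 0.86 at up to 500 bp to 0.97 over 4 kb. The share higher there went from 38.2% to 72.9%. A window of 1000 bp over a short element is mostly flank, and longer genes sum more windows. How far these account for the order was not tested. Transcribed pseudogenes, a separate RefSeq biotype, were counted among the pseudogene windows but not in these length classes. In the arms, 18 of 477 transcribed pseudogenes were higher, with a median of -0.09.

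Around arm pseudogenes over 2 kb, of which there were 274, the gain stayed close to the element. Inside them 37.1% of 2091 windows were higher (median 1.02). In flanks free of other pseudogenes the share was 11.6% within 1 kb (0.57), 4.96% from 1 to 2 kb (0.20) and 1.68% from 5 to 10 kb (0.02). Sonicated fragments were about 500 bp, so part of the first kb reads fragments that reach into the element. Inside arm protein-coding genes over 2 kb, 0.992% of windows were higher, with a median of 0.05.

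**Figure D4:**
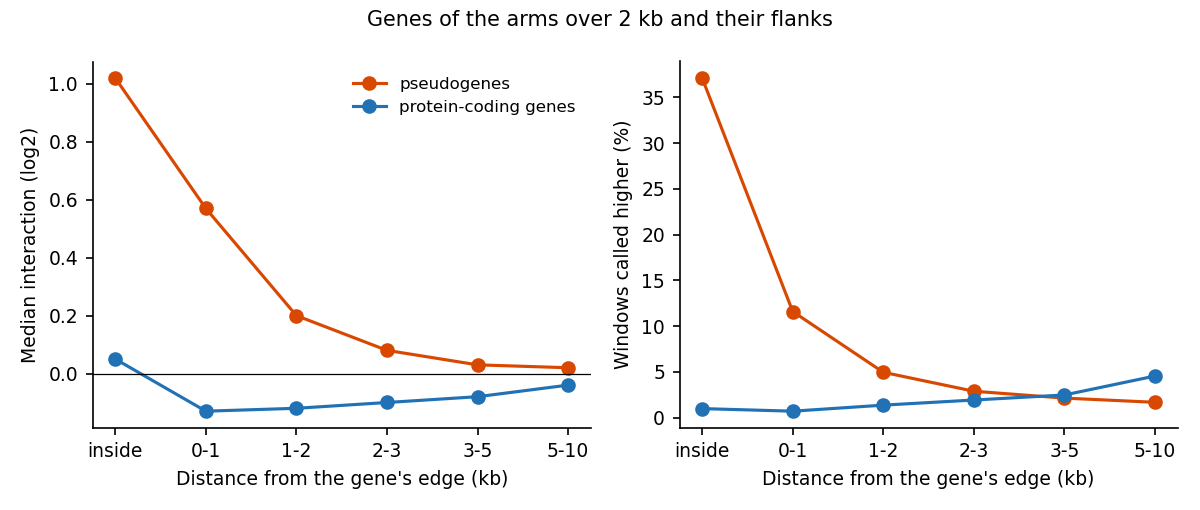
Median interaction (log2, left) and percent of windows called higher (right) inside genes of the arms over 2 kb and at increasing distance from their edges (kb), for pseudogenes and protein-coding genes. For pseudogenes the median falls from 1.02 inside to 0.02 at 5 to 10 kb; for protein-coding genes it stays between -0.13 and 0.05.

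Among higher windows of the arms outside copy-rich DNA, the one with the smallest p lay in an isolated domain of chromosome 1. A run of 24 windows (chr1:7064501-7077000, 12.5 kb) covered the pseudogene AT1G20390 and the neighbouring protein-coding gene AT1G20400. In that window (chr1:7067001-7068000), scaled counts (cpm) were 2.22 and 2.44 in WT input, 0.514 and 1.95 in WT ChIP, 2.09 and 2.37 in MBD7 input, and 27.5 and 25.3 in MBD7 ChIP. Only the MBD7 ChIP libraries stood apart, and the interaction was 4.58 ± 0.42 (log2 ± SE, edgeR adjusted p = 2.96e-10). It was 3.83 without WT ChIP replicate 1 and 5.74 without WT ChIP replicate 2. All 24 windows of the run were higher, with a median of 4.26, while of the 34 windows within 15 kb of its centre that do not overlap it 0 were higher and 1 was lower by edgeR. At an unadjusted p under 0.05, 4 of the 34 were higher, and DESeq2 called 0.

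**Figure D5:**
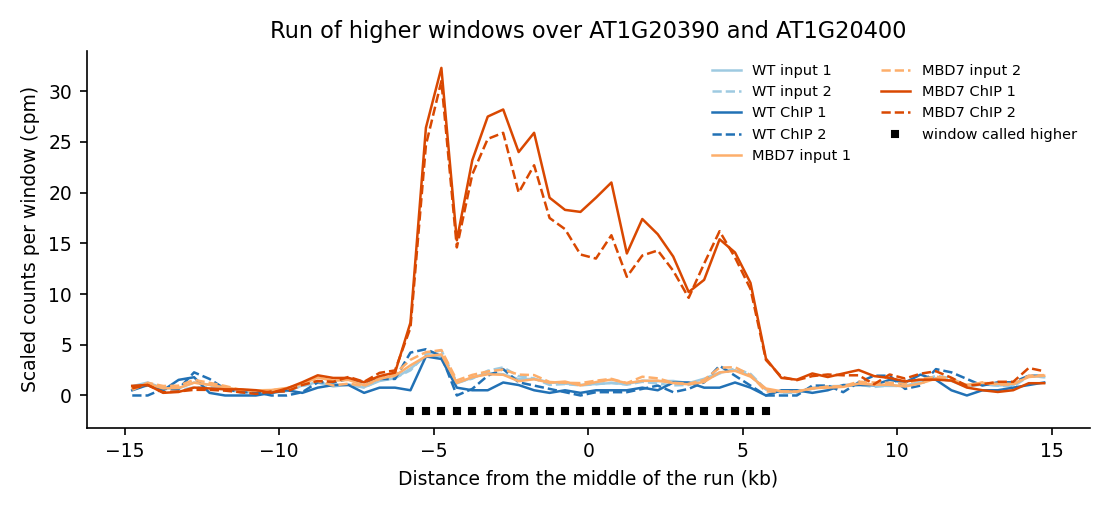
Scaled counts per window (cpm) in the 8 libraries against distance from the middle of the run in kb, with squares under windows called higher. Both MBD7 ChIP libraries rise over the run, to a median of 17.8 and 14.5 cpm, while the other 6 libraries stay at medians of 0.642 to 1.77.

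Among all windows outside copy-rich DNA, the smallest p fell on an intergenic window of the chromosome 3 pericentromere (chr3:14254501-14255500). It held 169 and 126 counts in WT input, 0 and 4 in WT ChIP, 94 and 83 in MBD7 input, and 621 and 344 in MBD7 ChIP. The ratio of ratios from summed counts was 110, with a 95% counting interval of 43.0 to 404, which reflects the few WT ChIP counts. The protein-coding genes AT1G32010 (chr1:11509001-11510000, 4.86 ± 0.41, adjusted p = 8.12e-11) and AT5G38190 (chr5:15236001-15237000, 4.64 ± 0.40, adjusted p = 1.05e-10) followed. At AT1G32010 the ChIP libraries held 5 and 2 counts in WT and 262 and 272 in MBD7, against inputs of 98 to 179. Taking 1 window from each set of touching windows, 3 of the 12 higher ones with the smallest p lay in the arms. Without WT ChIP replicate 1 the log2 interaction was 5.60 at the chromosome 3 window and 5.50 at AT1G32010. Without WT ChIP replicate 2 the chromosome 3 window has 0 counts left in WT ChIP, and its fitted 13.96 is no bound.

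Some large gains arose where WT ChIP had no counts, and only a lower bound can be given for them. At AT1G69550 (chr1:26149501-26150500) the WT ChIP libraries held 0 and 0 counts, the MBD7 ChIP libraries 85 and 95, the WT inputs 430 and 214 and the MBD7 inputs 223 and 110. With 3 counts per library as the floor for WT ChIP, the gain was at least 15.9-fold. MBD7 ChIP over its own input was 1.10 ± 0.21 (log2 ± SE) there, so the bound rests largely on the absent WT ChIP counts. The inputs also differed, with 7.96 and 4.74 cpm in WT and 4.02 and 2.87 in MBD7. Bounds at the other 5 named windows with 0 counts in WT ChIP ranged from 3.49-fold at AT3G13370 to 12.4-fold at an intergenic window of chromosome 3.

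Protein-coding genes of the arms were mostly at background: 439 of 23600 were higher (1.86%) and 575 lower (2.44%), with a median of -0.14. Genes that share a window with a pseudogene were higher in 54 of 836 cases (6.46%), and genes that share none in 385 of 22764 (1.69%). The arm protein-coding gene with the smallest p was AT1G20400, which the run on chromosome 1 described above covers. Its scaled counts were 25.3 and 23.8 in WT input, 14.6 and 17.8 in WT ChIP, 24.3 and 26.4 in MBD7 input, and 211 and 197 in MBD7 ChIP. Both MBD7 ChIP libraries lay above all others, for an interaction of 3.62 ± 0.23 (edgeR adjusted p = 1.00e-07).

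The next genes by p were AT4G20953 (2.45 ± 0.22), AT1G24851 (2.54 ± 0.23, in copy-rich DNA), AT1G51172 (2.75 ± 0.25), EDA34 (2.22 ± 0.21) and AT4G16900 (2.04 ± 0.20). In each of these 5, edgeR's adjusted p was at most 2.38e-06 and the MBD7 ChIP libraries stood above the other 6. AT1G51172 was at 3.34 without WT ChIP replicate 1. AT4G16900 belongs to the RPP5 cluster of immune receptor genes, as does SNC1, whose product is a TIR-type nucleotide-binding leucine-rich repeat receptor. SNC1 had 61.4 and 57.9 cpm in WT input, 58.9 and 40.2 in WT ChIP, 53.9 and 64.2 in MBD7 input, and 156 and 146 in MBD7 ChIP. Its interaction was 1.60 ± 0.23 (edgeR adjusted p = 1.19e-04), and 5 of its 13 windows were higher. Members of this cluster are similar in sequence, so reads may be shared among copies.

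The plants' transgenes touch MBD7 and SUC2, the latter encoding the sucrose-proton symporter of the phloem. At SUC2 the scaled counts were 31.5 and 39.8 in WT input, 31 and 45.4 in WT ChIP, 37.7 and 35.2 in MBD7 input, and 103 and 99.7 in MBD7 ChIP. The inputs of both lines overlapped and only MBD7 ChIP was high, with an interaction of 1.40 ± 0.24 (edgeR adjusted p = 6.18e-04) and 5 of 7 windows higher. At MBD7 the input itself differed between the lines, with 12.1 and 12.8 cpm in WT and 95.7 and 95.4 in the tagged line. MBD7 ChIP held 207 and 203 cpm there and WT ChIP 27.5 and 37.9, so ChIP exceeded input by 1.10 in the tagged line and by 1.38 in WT. After input correction the interaction was -0.28 ± 0.23 (edgeR adjusted p = 0.508), and edgeR called 0 of 7 windows, with 1 lower at an unadjusted p under 0.05 and 0 called by DESeq2.

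Of 14 methylated reporter loci, SNC1 and EVADE were higher and 0 lower, where 8.86% of all genes were higher and 2.34% lower. At an unadjusted edgeR p under 0.05, 4 were higher and 1 lower, and DESeq2 called 3 higher and 0 lower. So few calls do not set the list apart. The list median was 0.32 against -0.04 for all genes. QQS, AtMu1, CACTA1, EPF2 and AGL36 are pericentromeric and had 0.03 to 0.40, below the median of 0.51 for pericentromeric genes. EVADE is a copia-type retrotransposon. It had 32.6 and 33.4 cpm in WT input, 26.1 and 40.2 in WT ChIP, 31.3 and 29.8 in MBD7 input, and 69.4 and 59.8 in MBD7 ChIP, for an interaction of 1.10 ± 0.23 (edgeR adjusted p = 0.0037). It was 0.87 without WT ChIP replicate 1 and 1.48 without WT ChIP replicate 2. That call was lost with library size alone, at 0.75. SDC, an F-box gene silenced by repeat methylation in its promoter, had 1.04 ± 0.42 and did not pass (edgeR adjusted p = 0.133).

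Genes for the methyl-CpG-binding family and for the methylation and demethylation machineries gave at most 1 call per list in each direction, where 8.86% of all genes were higher and 2.34% lower. Counts this small do not set these lists apart from all genes. Of 12 family members, MBD2 was higher (1.04 ± 0.26, edgeR adjusted p = 0.0105), MBD11 was lower (-0.97 ± 0.28, edgeR adjusted p = 0.0309), and the median was -0.27. MBD2 is pericentromeric, where 30% of genes were higher. Of its 7 windows 0 were called, the highest at 1.95 (edgeR adjusted p = 0.0906). Of 12 methylation genes, NRPD1, which encodes the catalytic subunit of polymerase Pol IV, was higher (0.85 ± 0.22, edgeR adjusted p = 0.0149), with a list median of 0.03. Of 11 demethylation genes, the glycosylase gene DML2 was lower (-0.74 ± 0.22, edgeR adjusted p = 0.039), with a list median of -0.14. The glycosylase ROS1 (0.40 ± 0.23) and the histone acetyltransferase IDM1 (-0.29 ± 0.25) did not pass.

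These 4 calls depended on single libraries. Leaving out 1 library ended the call for DML2 in 7 of 8 cases, for MBD11 in 6, for NRPD1 in 4 (each of the inputs) and for MBD2 in 2 (WT input replicate 1 and MBD7 input replicate 1). NRPD1 at 0.51 and MBD2 at 0.71 did not pass with library size alone. In the 7 demethylation targets, 13 Polycomb targets and 11 reference genes, 0 passed edgeR's test in either direction, with medians of -0.11, -0.17 and 0.12. Of all genes, 8.86% were higher and 2.34% lower, so 0 calls do not set lists this small apart. At an unadjusted p under 0.05, 1 demethylation target was higher, 3 Polycomb targets were lower and 1 reference gene was lower, and DESeq2 called 1 demethylation target higher and 0 of the others.

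Lower values were fewer and mostly short. Of 797 runs of lower windows, 89.3% were at most 1500 bp, and the 12 of at least 5000 bp were all pericentromeric. The longest run of lower bins covered 270 kb of the chromosome 2 pericentromere (chr2:3240001-3510000, median -0.82), a stretch known for its large insertion of mitochondrial DNA. It took 1.01% and 1.21% of all counts in WT input, 0.44% and 0.548% in WT ChIP, 1.74% and 1.87% in MBD7 input, and 0.285% and 0.37% in MBD7 ChIP. The MBD7 inputs were the highest and the MBD7 ChIP libraries the lowest. Reads of mitochondria and of the insertion may be shared, and the part of the input difference in the lower call was not tested.

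Copy-rich windows split in the same way. Between 3 and 4 Mb of chromosome 2, 9 of 446 were higher and 221 lower, with a median of -0.83, composed of -0.34 between the ChIP groups and 0.49 between the inputs. The other 1507 had 532 higher and 25 lower, with a median of 0.67. Their medians were 0.41 between the ChIP groups and -0.25 between the inputs. Of the 233 lower genes of the pericentromere, 168 lay in that Mb, including all 18 lower tRNA genes.

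Among the other lower windows, the smallest p fell on one that overlaps both NRPD1B and AT2G40050 (chr2:16723501-16724500). NRPD1B is the gene for the largest subunit of RNA polymerase V. The window held 150 and 67 counts in WT input, 51 and 44 in WT ChIP, 162 and 107 in MBD7 input, and 11 and 10 in MBD7 ChIP. WT ChIP was above its input and MBD7 ChIP below its own once scaled, for an interaction of -4.36 ± 0.38 (edgeR adjusted p = 1.41e-10). AT2G40990 (-3.56 ± 0.34) and VPS60.2 (-3.24 ± 0.31) also had WT ChIP above its input, with 55 and 41 counts, and 75 and 57 counts, in WT ChIP. MBD7 ChIP over input was -1.71 ± 0.32 at the NRPD1B window and -0.37 ± 0.26 at AT2G40990. Without WT input replicate 1 the value was -4.99 at the NRPD1B window, and without MBD7 ChIP replicate 2 it was -4.46 at AT2G40990. Over the whole NRPD1B gene, named NRPE1 in the list of methylation genes, the interaction did not pass (-0.43 ± 0.27, edgeR adjusted p = 0.359). MBD7 ChIP exceeded input by 0.68 over that gene. At VPS60.2, MBD7 ChIP over input was 0.26, so the lower interaction there came from WT ChIP over input at 3.49.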

How the data were processed

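Raw counts per window were deposited, which the authors made with Bowtie2, SAMtools and featureCounts on TAIR10, per the submitters' processing notes. Not given in the sources used here are versions, duplicate removal and the handling of reads with several alignments. Copies of a repeat can thus share reads, and a count need not be an independent molecule. Intervals and floors cover counting error only. Windows of 1000 bp every 500 bp overlap, so neighbours share reads. Of the columns, 0 belonged to other samples. Samples were grouped by their titles.

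Bins of 10 kb summed every second window, and genes summed the windows they overlap, so neighbouring genes share counts. RefSeq's table for TAIR10.1 gave gene names and biotypes, and none of its coordinates are printed. The pericentromere was taken as 11 to 18, 1 to 7, 10 to 17, 1 to 7 and 9 to 16 Mb of chromosomes 1 to 5. Windows were classed as protein-coding, pseudogene (transcribed ones included), RNA gene or intergenic, in that order.

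The interaction was a contrast of 1 fit of all 8 libraries at each level in edgeR 4.0.16 (R 4.3.3): filterByExpr, TMM, the quasi-likelihood test, two-sided, Benjamini-Hochberg adjustment at 0.05. All groups share 1 estimate of spread per feature, although WT ChIP replicates correlated least. TMM factors of windows ranged from 0.447 to 2.08. The script was tested on simulated data. Alternatives included DESeq2 1.42.0, other scaling, thinning, a 1.5-fold threshold and leaving out each library. Figures used matplotlib 3.10.9.

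Named windows had a mean of at least 10 counts and were the 12 higher and 6 lower with the smallest p, then the 6 higher and 3 lower with the largest values not yet named, plus 4 and 4 copy-rich ones. Of touching called windows only the one with the smallest p was eligible. Named genes were called list members and the 6 protein-coding arm genes with the smallest p; ROS1, IDM1 and SDC were added after their values were seen. The members, lists and rules were chosen with earlier results of these data known. Sequence features were not analysed here.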

Additional observations from a re-analysis of the deposited data

Results flagged for a closer look

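Some features had ChIP on opposite sides of input in the 2 lines, with both component contrasts past the threshold of edgeR's quasi-likelihood test. ChIP lay above input in MBD7 plants and below it in WT plants at 66 windows, 27 bins of 10 kb and 37 genes. The reverse, ChIP below input in MBD7 plants and above it in WT plants, held at 61 windows, 19 bins and 67 genes. Both directions are small beside the 15237 higher and 1336 lower windows of the interaction. The position of 0 in each component depends on the scaling between ChIP and input.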

How the results depend on the processing

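Counts of calls moved by over 1.5 times with the scaling, depth, threshold and bin width. With library size alone, 5748 windows were higher and 2761 lower (1544 runs of higher windows), 1079 bins were higher and 1622 lower (541 runs), and 1891 genes were higher and 2836 lower. Thinned to the depth of WT ChIP replicate 2, 3515 windows were higher and 633 lower (1249 runs), 180 bins were lower and 341 genes were lower. Tested against a 1.5-fold change, 6236 windows were higher and 315 lower (1794 runs), 672 bins were higher and 19 lower (446 runs), and 1280 genes were higher and 104 lower. Bins of 5000 bp gave 3435 higher, and bins of 50000 bp gave 653 higher and 208 lower. The pericentromeric share gave 0.15 with copy-rich windows kept. DESeq2's Wald test called 12800 windows higher and 905 lower, with an adjusted p at 52298.

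Leaving out 1 library at a time, where the lone library of a group is assumed to vary like the others, gave 8007 to 18628 higher and 937 to 1629 lower windows in 2299 to 3640 runs of higher windows. It gave 1530 to 2326 higher and 257 to 344 lower bins in 727 to 872 runs, and 1940 to 4203 higher and 262 to 1172 lower genes. The cause of these moves was not tested. Among single windows and genes, an item filtered out or left without an adjusted p under a setting was not scored there. Of 35 named windows, 27 were scored with DESeq2's Wald test and 30 after thinning. The window at AT4G09005, with 17 and 0 counts in WT ChIP, reversed from -4.57 to 4.68 without WT ChIP replicate 1, and was -5.41 without WT ChIP replicate 2. Of the other single windows and genes under all settings, 772 values stayed on their side of the threshold and 38 lost their call.

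The differences of replicate 1 minus replicate 2 over 10 kb bins correlated between groups with r from -0.02 to 0.08. The numbers are therefore not taken to pair libraries. With the replicate number as a block, 15064 windows were higher and 1302 lower, 2244 bins were higher and 339 lower, and 3168 genes were higher and 710 lower. Depth limits single windows most in WT ChIP, where the median window held 4 and 3 counts. The planned comparison of promoters with whole genes for sequence features was not run.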

Other observations

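The share of higher windows differed with the depth of the input. In the arms it was 0.403% of windows at 0.5 to 1 times the median input (median interaction -0.09), 10.6% at 2 to 5 times (0.13) and 49.1% of the 772 windows at 5 to 10 times (0.86). In the pericentromere it was 8.14% (0.54), 44.4% (0.88) and 54.4% (0.86) in the same classes, but 26% (0.57) over 10 times the median, where 13.2% were lower. Windows with more input also hold more counts, and copies of a repeat can share reads.

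Of 71 pericentromeric tRNA genes, 0 were higher and 18 lower by edgeR's quasi-likelihood test, with a median of -0.49, against 30% higher, 2.67% lower and a median of 0.51 over all pericentromeric genes. At an unadjusted p under 0.05, 3 were higher, and DESeq2 called 1 higher and 17 lower. All 18 called by edgeR lay in the Mb of chromosome 2 with the mitochondrial insertion. Pericentromeric snoRNA genes had 2 of 36 higher and a median of -0.45, and miRNA genes had 11 of 75 higher and a median of 0.38, both below the share and median of all pericentromeric genes. Among copy-rich windows of the arms, the intergenic window chr1:21124501-21125500 had 280 and 237 cpm in MBD7 ChIP, 29.5 and 42.3 in WT ChIP and 21.2 to 28.3 in the inputs, for an interaction of 3.17 ± 0.28.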
